A study of Homo sapiens with 4 samples.

Results

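Peaks of open chromatin that were narrower after tunicamycin than after DMSO were sought in wild-type HCT116 cells, an established human colorectal cancer line. Accessibility was mapped by ATAC-seq, an assay in which a transposase inserts sequencing adapters into exposed DNA. Cells had received either tunicamycin (Tm) at 0.5 µg/ml for 6 h or the solvent DMSO at 0.1% for 6 h. Each group held 2 libraries of 50000 cells, called biological replicates by the series, and each library had its own list of peaks on the human build hg19. Nothing in the labels says whether the replicates came from separate cultures, and the line derives from a single tumour. The identity of the cells was not checked against marker genes, because an annotation for hg19 was not used here, and each region goes by its position. A library averages many cells, so fewer cells with an open site and a less open site in every cell cannot be told apart.

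The narrowed regions were chosen by their widths. Peaks that shared at least 1 bp across the 4 lists were merged into 78788 regions, of which 40447 had a peak in every library and 38731 had exactly 1 peak in each. Among these single-peak regions, a region counted as narrowed when the narrower DMSO peak was at least 30 bp wider than the wider Tm peak. This held for 868 regions, or 2.24% of the 38731. The widths of the same libraries chose the regions, so widths, summit heights and ranks between Tm and DMSO are given as a description with no test.

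Tunicamycin inhibits the first enzyme of protein N-glycosylation, and unfolded glycoproteins then build up in the endoplasmic reticulum. The sensors PERK, IRE1 and ATF6 pass this stress on to the nucleus, where transcription factors such as ATF4, XBP1 and the cleaved form of ATF6 act on promoters and enhancers. In ATAC-seq an open site is a stretch free of nucleosomes, usually a promoter or an enhancer held open by bound factors. The summit of a peak is where most reads pile up, and its ends are where the pileup no longer passes the peak caller's threshold over the local background. From a narrower peak alone, a shorter open stretch and weaker flanks cannot be told apart.

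Narrowing was less frequent than widening on the listed widths. That order turned with widths scaled to each library's median (1.02 narrowed for each widened region). The share of narrowed regions lay within the range of the other pairings of the libraries. The mirrored rule, both Tm peaks at least 30 bp wider than both DMSO peaks, held for 1338 regions (3.45%). Narrowed regions thus numbered 0.649 for each widened region. For background, the rule was also run on both remaining pairings of the 4 libraries. DMSO replicate 2 and Tm replicate 2 were together narrower than DMSO replicate 1 and Tm replicate 1 in 655 regions (1.69%), and wider in 1082 (2.79%). DMSO replicate 1 and Tm replicate 2 were together narrower than DMSO replicate 2 and Tm replicate 1 in 667 regions (1.72%), and wider in 963 (2.49%). The 868 narrowed regions lay within this range of 655 to 1082. They numbered more than the 655 and the 667, the counts that also had Tm replicate 2 on the narrower side. A region can meet the rule in only 1 of these pairings, so the counts are not independent.

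Tm replicate 2 had the widest peaks. Over the single-peak regions the median width was 179 bp in Tm replicate 1 and 185 bp in Tm replicate 2, against 178 bp and 179 bp in DMSO replicates 1 and 2. Among pairings that put Tm replicate 2 on the narrower side, narrowing after Tm was 1.31 times as frequent as the mean of the other 2 pairings. Widening after Tm was likewise 1.31 times as frequent as the mean of the pairings with Tm replicate 2 on the wider side. With the widths centred on the median of each library, a setting chosen after seeing the data, 1052 regions were narrowed (2.72%) and 1102 widened (2.85%). The 4 counts of the other pairings were then 802 to 899 (2.07% to 2.32%). On centred widths both directions after Tm lay above the other pairings, while on the listed widths only widening did.

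**Figure D1:**
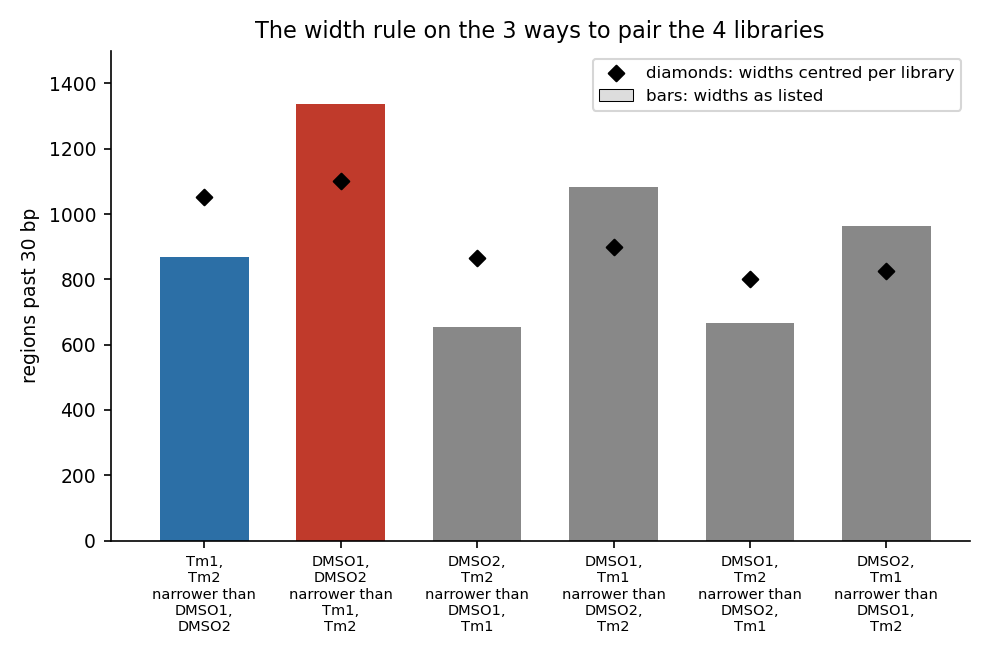
Number of single-peak regions (y axis) in which both libraries of a pair were at least 30 bp narrower than both libraries of the other pair, for the 3 ways of pairing the libraries in both directions (x axis; DMSO1 stands for DMSO replicate 1, and so on). Bars are counts on the listed widths and diamonds counts on widths centred per library. Narrowing after Tm (first bar, 868) lies inside the range of the grey bars (655 to 1082), and above those with Tm2 on the narrower side (655 and 667).

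Narrowed regions kept a median of 71.0% of their DMSO width. Their peaks were 100 to 1114 bp wide in Tm replicate 1 (median 169) and 100 to 962 bp in Tm replicate 2 (median 171). In DMSO replicate 1 they were 133 to 1179 bp wide (median 251.5), and in DMSO replicate 2 they were 137 to 1181 bp wide (median 253). By the rule no region overlapped between the groups. Together the peaks of these regions covered 166.6 and 169.6 kb in the Tm libraries, against 239.5 and 239.6 kb in the DMSO libraries. After Tm their medians lay slightly under the 179 and 185 bp of all single-peak regions, and in DMSO well above the 178 and 179 bp.

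The difference was mostly small. The gap, which is the narrower DMSO width minus the wider Tm width, had a median of 44 bp, and 50% of regions lay between 35 and 62 bp. A gap of 30 to 39 bp was found in 351 regions (40.4%), one of at least 50 bp in 337 (38.8%) and one of at least 100 bp in 77 (8.87%). Replicates of the same group differed by a median of 15 bp between the Tm libraries and 18 bp between the DMSO libraries in these regions. Over all single-peak regions the medians were 20 bp and 21 bp, and every pair of a Tm and a DMSO library also differed by a median of 21 bp. In 609 narrowed regions (70.2%) the gap was larger than the difference between the Tm replicates and larger than that between the DMSO replicates. The rule chose regions by this gap, and the share is not given for the other pairings, so it is no separate result. Only 42 narrowed regions (4.84%) kept under 50% of their DMSO width, with median widths of 134.5 bp after Tm and 308.5 bp after DMSO. Among all single-peak regions 44 did so (0.114%). The rule chose regions by width, so this difference in shares is no separate result.

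**Figure D2:**
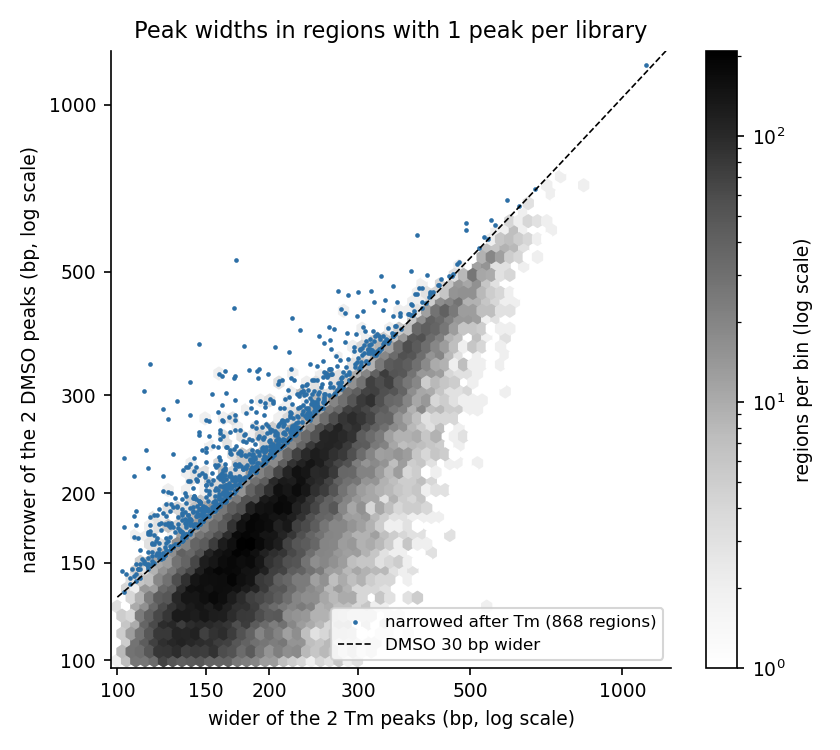
Width of the wider Tm peak (x axis, bp, log scale) against the narrower DMSO peak (y axis, bp, log scale) in the 38731 single-peak regions; grey shading is the number of regions per bin and blue points are the 868 narrowed regions. The points lie above the dashed line of a 30 bp difference by rule, most of them close to it.

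The regions at the limit show how the rule divides a continuous range. With a gap of exactly 30 bp, the region chr1:3568694-3568894 had peaks of 102 and 152 bp in the Tm libraries, against 189 and 182 bp in the DMSO libraries. The region chr1:19239567-19239852 had 197 and 217 bp in the Tm libraries, against 247 and 286 bp in the DMSO libraries. In chr1:40025106-40025602 the peaks were 159 and 333 bp wide in the Tm libraries, against 363 and 477 bp in the DMSO libraries. In each of these, replicates of the same group lay further apart than the gap of 30 bp. This held for the Tm replicates in the first and the third region, and for the DMSO replicates in the second and the third. Just outside, with a gap of 29 bp, chr1:66902151-66902469 had 233 and 268 bp in the Tm libraries, against 297 and 304 bp in the DMSO libraries. The regions chr1:90900122-90900288 (130 and 121 bp in the Tm libraries, against 167 and 159 bp in the DMSO libraries) and chr1:162770153-162770363 (156 and 127 bp in the Tm libraries, against 185 and 210 bp in the DMSO libraries) also had a gap of 29 bp.

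The 12 largest gaps ran from 169 to 353 bp. The largest was at chr9:2260535-2261363, where the peak was 128 and 172 bp wide in the Tm libraries, against 525 and 829 bp in the DMSO libraries. It kept 22.2% of its DMSO width and lost it mostly at the upper-coordinate end, 403.5 bp there and 123.5 bp at the lower end. Its summit held 14 and 16 reads in the Tm libraries, against 26 and 15 reads in the DMSO libraries. The summits therefore overlapped between the groups although the widths were far apart.

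At chr12:122687904-122688324 the peaks measured 145 bp in both Tm libraries, against 371 and 406 bp in the DMSO libraries. The lower end was in the same place within 8 bp, and the upper end lay 251.5 bp further in after Tm. A similar loss at the upper end was seen at chr2:88629688-88630076, with 178 and 165 bp in the Tm libraries, against 368 and 380 bp in the DMSO libraries. At this region the summit was also lower, with 16 and 17 reads in the Tm libraries, against 26 and 24 reads in the DMSO libraries. At chr1:42421151-42421526 the widths were 107 and 163 bp in the Tm libraries, against 332 and 345 bp in the DMSO libraries, again through the upper end. In these 3 regions the summit stayed in place within 20.5 bp, so the stretch around the summit was listed in every library, while a flank on a single side was listed only in DMSO.

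The region chr17:57914806-57915402 was a broad site, with peaks of 392 and 385 bp in the Tm libraries, against 584 and 583 bp in the DMSO libraries. It lost 187 bp at the lower end and 8 bp at the upper end. Its summits held 41 and 44 reads in the Tm libraries, against 41 and 31 reads in the DMSO libraries, so the height did not fall with the width. The same was true of chr19:58962767-58963240, which measured 255 and 274 bp in the Tm libraries, against 462 and 474 bp in the DMSO libraries. There the summits held 27 and 42 reads in the Tm libraries, against 22 and 32 reads in the DMSO libraries.

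In a single one of the 12, chr11:68934056-68934370, both Tm summits were higher than both DMSO summits. Its peak was 108 and 113 bp wide with 16 and 15 reads in the Tm libraries, against 305 and 315 bp with 9 and 13 reads in the DMSO libraries. Both Tm summits were lower in 5 of the 12. Over all single-peak regions both were lower in 7.25% and higher in 25.5%. One of the 5 was chr1:23883241-23883620, 159 and 100 bp wide with 17 reads in both Tm libraries, against 380 and 328 bp with 31 and 25 reads in the DMSO libraries. A weaker one, chr19:14464150-14464509, was 107 and 139 bp wide with 5 and 8 reads in the Tm libraries, against 354 and 317 bp with 10 and 13 reads in the DMSO libraries. Its summit also lay 158 bp higher in coordinate after Tm, so that the listed Tm peaks marked another part of the region than the DMSO summits.

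In 2 of the 12 the Tm peaks lay in different parts of the same DMSO peak. At chr1:76703733-76704216 the peaks were 143 and 170 bp wide in the Tm libraries, against 484 and 430 bp in the DMSO libraries. At chr6:149867112-149867561 they were 222 and 104 bp wide in the Tm libraries, against 445 and 413 bp in the DMSO libraries. The remaining region, chr6:8959154-8959546, had 106 and 116 bp in the Tm libraries, against 342 and 393 bp in the DMSO libraries, over only 7 and 6 reads in the Tm libraries, against 10 and 7 reads in the DMSO libraries. Of the 12, 6 had a mean percentile rank under 50 in their lists, where the rank orders the peaks of a library by q-value and 100 is the strongest.

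**Figure D3:**
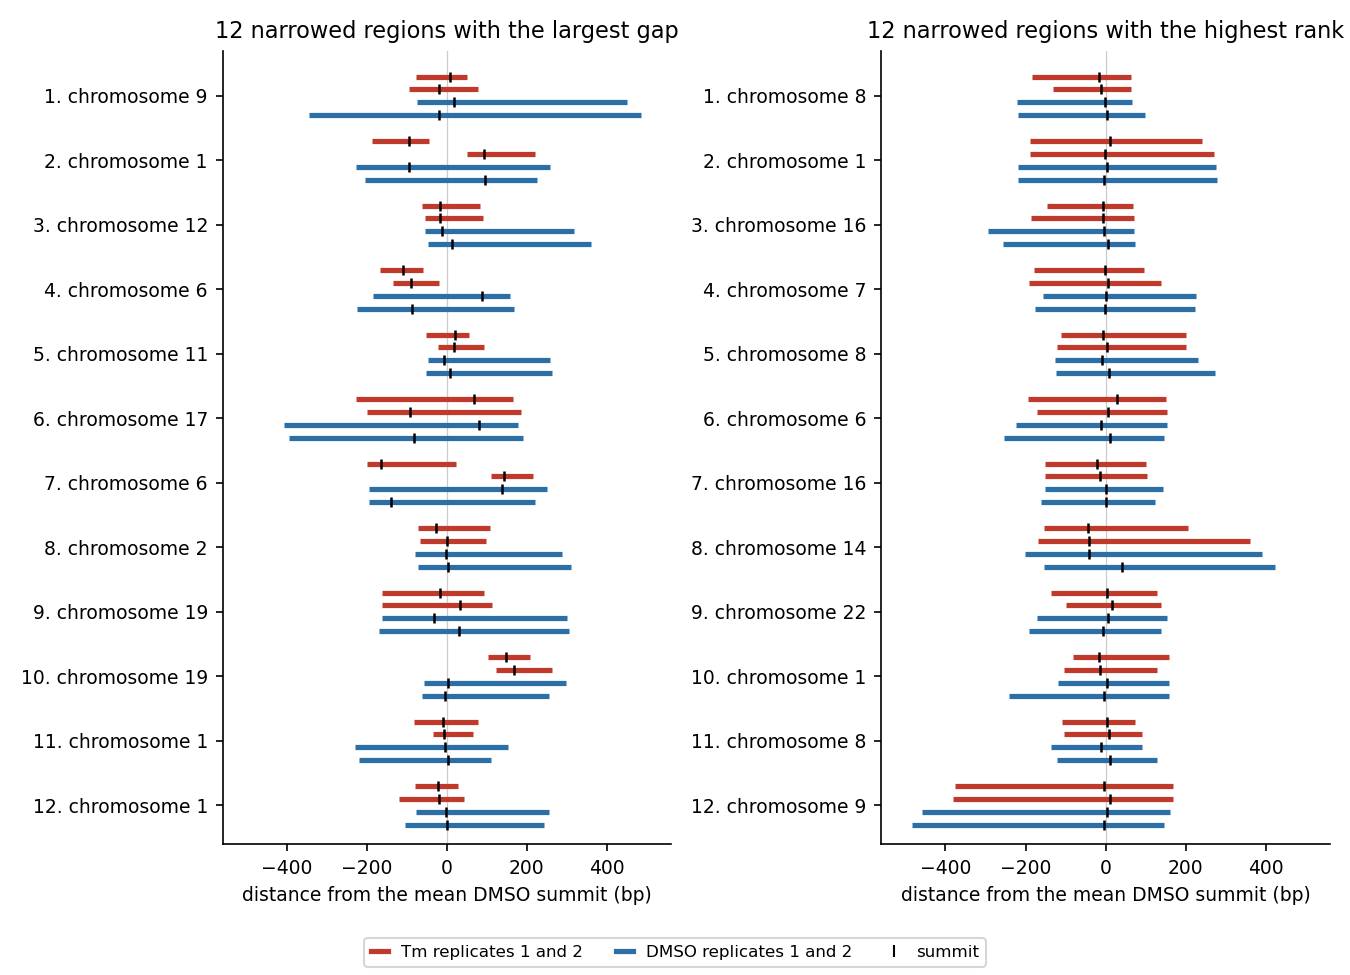
Extent of the peak in each library (Tm replicates 1 and 2 in red above DMSO replicates 1 and 2 in blue; ticks are summits) relative to the mean DMSO summit (x axis, bp) for the 12 narrowed regions with the largest gap (left, 169 to 353 bp) and the 12 with the highest mean rank (right, gaps of 30 to 73 bp). Regions are numbered in that order (y axis), and at numbers 2 and 7 on the left the Tm peaks share no base.

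Narrowed regions were also found among the strongest sites. The 12 with the highest mean percentile rank (97.1 to 99.5) had gaps of 30 to 73 bp and kept 68.0% to 89.7% of their DMSO width. The summit was lower in both Tm libraries in 0 of the 12 (7.25% of all single-peak regions) and higher in 5 (25.5% of all). Summit reads were not scaled between libraries, and by rank the groups overlapped at some of the 5. At chr9:35732032-35732683 the ranks were 98.5 and 96.5 in the Tm libraries, against 98.2 and 95.4 in the DMSO libraries. In all 12 both DMSO summits lay inside both Tm peaks, beside 97.5% of all single-peak regions. The top one, chr8:101801142-101801460, was 249 and 195 bp wide with 62 and 86 reads in the Tm libraries, against 287 and 317 bp with 60 and 64 reads in the DMSO libraries. The next, chr1:86072790-86073287, had 430 and 461 bp with 74 and 78 reads in the Tm libraries, against 497 and 496 bp with 73 and 74 reads in the DMSO libraries. Its heights were nearly equal in the 4 libraries.

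The largest gap among the strong regions, 73 bp, was at chr16:27561170-27561536, which had 215 and 257 bp in the Tm libraries, against 364 and 330 bp in the DMSO libraries. It lost 108.5 bp at the lower end and 2.5 bp at the upper end. At chr7:44163060-44163476 the loss was at the upper end, 107.5 bp, with peaks of 275 and 329 bp in the Tm libraries, against 383 and 401 bp in the DMSO libraries. At chr9:35732032-35732683 the peaks were 545 and 550 bp wide in the Tm libraries, against 620 and 628 bp in the DMSO libraries. Its upper end lay 15.5 bp further out after Tm while the lower end lay 92 bp further in.

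Higher summits went with narrower peaks at chr1:39338936-39339336, with 240 and 232 bp and 60 reads in both Tm libraries, against 278 and 401 bp and 41 and 43 reads in the DMSO libraries. The DMSO replicates differed by 123 bp there, far more than the gap of 38 bp. A like spread lay between the Tm replicates at chr14:74551011-74551634, with 359 and 531 bp in the Tm libraries, against 592 and 578 bp in the DMSO libraries. At chr22:42466726-42467070 the peaks were 266 and 236 bp wide in the Tm libraries, against 327 and 330 bp in the DMSO libraries. There the Tm replicates differed by 30 bp and the DMSO replicates by 3 bp, both less than the gap of 61 bp. The other 4, on chromosomes 6, 8 and 16, had gaps of 30 to 35 bp and are shown in the plot of peak extents.

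Most of the width was lost at a single end of the peak. In 509 narrowed regions (58.6%, Wilson 95% interval 55.3% to 61.9%) at least 80% of the loss lay at the same end, 259 times at the lower-coordinate end and 250 times at the upper. Intervals here and below cover counting error only. They take regions of the same libraries as independent and do not hold the spread between libraries. The end that moved more lay a median of 59.5 bp further in after Tm, and the other end 10.5 bp. In 189 regions (21.8%) an end lay further out after Tm. This share of regions with a loss at a single end was 57.7% and 59.7% among regions that met the rule in the other pairings with Tm replicate 2 on the narrower side. The narrowed regions thus lay between these other pairings.

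The larger loss was usually on the longer shoulder of the DMSO peak, about as often as in the other pairings of the libraries. The DMSO summit lay a median of 164.75 bp from the further end and 87.5 bp from the nearer end of the peak. After Tm the distances from the Tm summit to the further and nearer end, found anew for the Tm peak, were 104 and 67.5 bp. Over all single-peak regions such distances were 110 and 70.5 bp after Tm, against 108 and 68.5 bp after DMSO. The further end after Tm need not be the further end after DMSO. The larger loss was on the longer DMSO shoulder in 644 narrowed regions (74.2%), and in 423 of the 509 with a loss at a single end (83.1%). Read from the wider pair in the same way, the shares were 72.4% to 76.5% and 81.4% to 85.6% over the 4 other pairings and directions. Wide DMSO peaks were what the rule chose, so the long shoulder is no separate result. Both Tm peaks lay wholly inside both DMSO peaks in 352 regions (40.6%), beside 3.53% of all single-peak regions. The narrower pair lay inside the wider pair in 34.3% to 41.8% of regions in the 4 other pairings and directions.

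**Figure D4:**
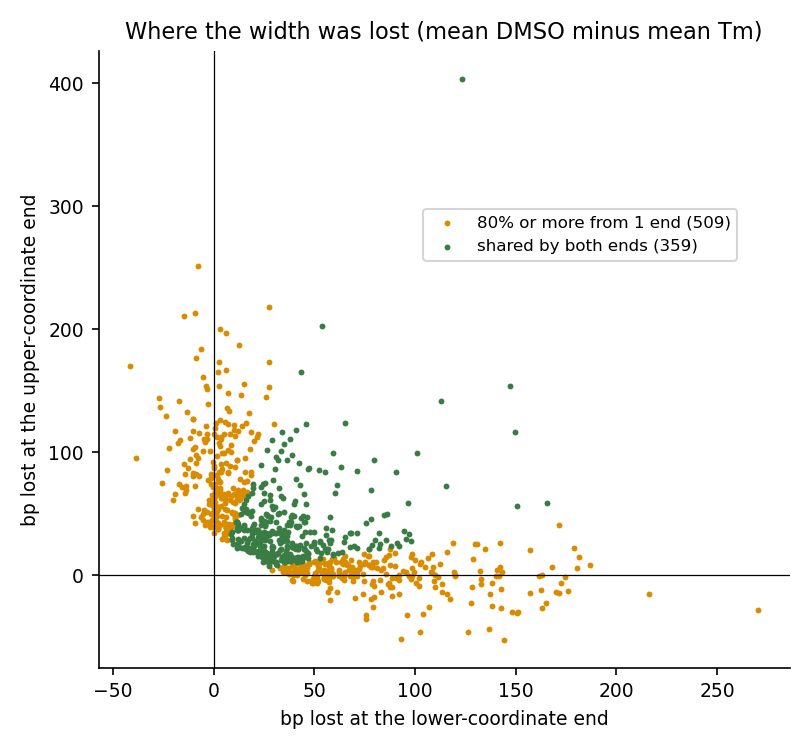
Width lost after Tm at the lower-coordinate end (x axis, bp) and at the upper-coordinate end (y axis, bp) of each of the 868 narrowed regions, as differences between group means; negative values mark an end that lay further out after Tm. Orange points (509) form arms along both axes, with 259 regions on the lower-end arm and 250 on the upper-end arm, and green points (359) lost width at both ends.

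A loss at both ends that separated all 4 libraries was rare. In 525 regions (60.5%) both Tm ends lay at least 30 bp inside both DMSO ends on at least 1 side, but only 7 regions did so on both. Both sides together need a gap of at least 30 bp plus 30 bp. The median gap was 44 bp, so most narrowed regions could not reach this. Neither share is given for the other pairings or over all single-peak regions. These 7 were picked after their values were seen. In both Tm libraries the summit was lower than in both DMSO libraries in 3 of the 7 and higher in 2. Over all single-peak regions these shares were 7.25% and 25.5%. The strongest was chr3:183967237-183967724, with 280 and 286 bp in the Tm libraries, against 488 and 454 bp in the DMSO libraries. It lost 115.5 bp at the lower and 72.5 bp at the upper end, while its summits held 49 and 55 reads in the Tm libraries, against 42 and 45 reads in the DMSO libraries. At chr4:47567273-47567589 the peaks were 196 and 178 bp wide in the Tm libraries, against 316 and 290 bp in the DMSO libraries, also with higher Tm summits (34 and 35 reads, against 26 and 32 reads in DMSO). These are the 2 of the 7 that were taller after Tm. At chr17:53510498-53510916 the peaks were 167 and 205 bp wide in the Tm libraries, against 367 and 383 bp in the DMSO libraries, with overlapping summit heights. Of the 3 that were lower, chr1:23883241-23883620 is described above, and the others were weak. At chr2:146081119-146081432 the summits held 5 and 7 reads in the Tm libraries, against 8 and 12 reads in the DMSO libraries. At chr21:33836174-33836498 they held 6 and 8 reads in the Tm libraries, against 11 and 10 reads in the DMSO libraries.

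Summits mostly stayed in place. The mean Tm summit lay a median of 15.5 bp from the mean DMSO summit in narrowed regions, and 13.5 bp over all single-peak regions. Summits of single replicates differed by a median of 19 bp in both groups in the narrowed regions. A distance between group means is not the same measure, so these values are not set against each other. Every DMSO summit lay inside both Tm peaks in 774 narrowed regions (89.2%) and in 97.5% of all single-peak regions. In the 94 narrowed regions where a DMSO summit fell outside a Tm peak, the median mean rank was 26.0, beside 53.7 in all narrowed regions. Most of the 94 were thus weaker sites, but not all, since chr1:8085972-8086603 had a mean rank of 59.7. The 4 summits spread over more than 100 bp in 130 of the 868 narrowed regions, 14.3% of widened regions and 9.46% of all single-peak regions.

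In a few narrowed regions the Tm replicates marked different places. In 9 of them the Tm peaks of the replicates shared no base, among 20 such regions in all. Besides the pair described above they lay on chromosomes 1, 2, 8, 11, 21 and X. At chr1:22469696-22469995 the peaks were 123 and 113 bp wide in the Tm libraries, against 300 and 283 bp in the DMSO libraries. In these 9 regions the Tm replicates listed different stretches of the site, and the widths of their peaks do not describe the same stretch. The mirror image was as frequent, since the DMSO peaks shared no base in 14 widened regions (1.05%, beside 1.04% of narrowed regions).

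Both Tm summits were lower than both DMSO summits in a minority of narrowed regions. The summit held a median of 16 and 18 reads in the Tm libraries and 17 reads in both DMSO libraries, where reads are the pileup recovered from the authors' fold and p-value. Over all single-peak regions the medians were 19 and 21 reads in the Tm libraries, against 18 and 19 reads in the DMSO libraries. The median ratio of the mean Tm summit to the mean DMSO summit was 1.04 in narrowed regions, 1.13 in widened regions and 1.09 over all. Both Tm summits lay below both DMSO summits in 129 narrowed regions (14.9%), beside 7.25% of all single-peak regions. In the other pairings with Tm replicate 2 on the narrower side, the narrower pair had the lower summits in 5.80% and 9.30%. In their reverse directions this was 21.1% and 15.7%, and in widened regions both DMSO summits were lower in 31.9%. Among narrowed regions the share was 33.3% when Tm replicate 2 was left out and 23.9% when DMSO replicate 1 was, where the rule has fewer libraries to satisfy. The share over all single-peak regions is not given with a library left out, and 7.25% is no base for these values. Both Tm summits lay above both DMSO summits in 166 narrowed regions (19.1%), beside 25.5% of all. In the remaining 573 (66.0%) the groups overlapped, nearly the share of all single-peak regions (67.2%). Height and width come from the same pileups and the same contrast, so nothing more is read from these shares.

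Ranks within the lists differed little between the groups. The mean percentile rank after Tm minus that after DMSO had a median of -0.33 points in narrowed regions, 1.10 points over all single-peak regions and 2.32 points in widened regions. The rank was lower in both Tm libraries in 193 narrowed regions (22.2%), beside 14.7% of all, and higher in both in 162 (18.7%), beside 21.6% of all. The narrowed regions with a lower summit had a median gap of 47 bp, those with overlapping summits 43 bp, and those with a higher summit 41 bp. Across the 868 regions, which share their libraries, Spearman's rho between the gap and the summit ratio was -0.10.

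The 129 regions with a lower summit were lower and narrower together. Sites named here for a fall or a rise in rank were picked after their values were seen. At chr1:52623798-52624247 the summit held 17 and 11 reads in the Tm libraries, against 39 and 36 reads in the DMSO libraries, the largest fall in rank among the narrowed regions. Its widths were 168 and 190 bp in the Tm libraries, against 450 and 322 bp in the DMSO libraries. At chr9:6590845-6591102 the summit held 13 and 10 reads in the Tm libraries, against 24 and 25 reads in the DMSO libraries, with widths of 186 and 164 bp in the Tm libraries, against 231 and 258 bp in the DMSO libraries. At chr17:42385783-42386036 there were 12 and 8 reads in the Tm libraries, against 23 and 17 reads in the DMSO libraries, over 172 and 179 bp in the Tm libraries, against 254 and 234 bp in the DMSO libraries. These sites were lower and narrower after Tm with no overlap between the groups in either measure.

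Others were taller and narrower after Tm. The largest rise in rank was at chr2:233721306-233721596, with 18 and 22 reads in the Tm libraries, against 10 and 8 reads in the DMSO libraries. Its peak was 126 and 121 bp wide in the Tm libraries, against 273 and 272 bp in the DMSO libraries, but its 4 summits spread over 215 bp and a DMSO summit lay outside a Tm peak. At chr5:93446931-93447091 there were 12 and 21 reads in the Tm libraries, against 8 reads in both DMSO libraries, over 103 and 109 bp in the Tm libraries, against 139 and 147 bp in the DMSO libraries. At chr1:41343405-41343654 there were 20 reads in both Tm libraries, against 9 and 13 reads in the DMSO libraries, over 174 and 166 bp in the Tm libraries, against 230 and 208 bp in the DMSO libraries. In all 3 the groups overlapped in neither height nor width.

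Narrowing was more frequent among wide and among weak regions. Of regions with a mean width under 130 bp 0.278% were narrowed, of those of 160 to 200 bp 2.32%, and of those of at least 350 bp 3.61%. No listed peak was under 100 bp, which bounds the loss of a narrow region. Against the summit the order was reversed: 3.29% were narrowed where the mean summit was under 10 reads and 1.54% where it was at least 40 reads. Widened regions and the other pairings were also more frequent in the widest than in the narrowest class, and under 10 reads than at 40 or more. With a mean summit of 40 reads or more the other pairings with Tm replicate 2 on the narrower side gave 1.28% and 1.37%. The median mean rank was 53.7 in narrowed regions, 55.4 in widened regions and 62.5 over all. A mean rank above 90 was found in 71 narrowed regions (8.18%), beside 12.5% of all.

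**Figure D5:**
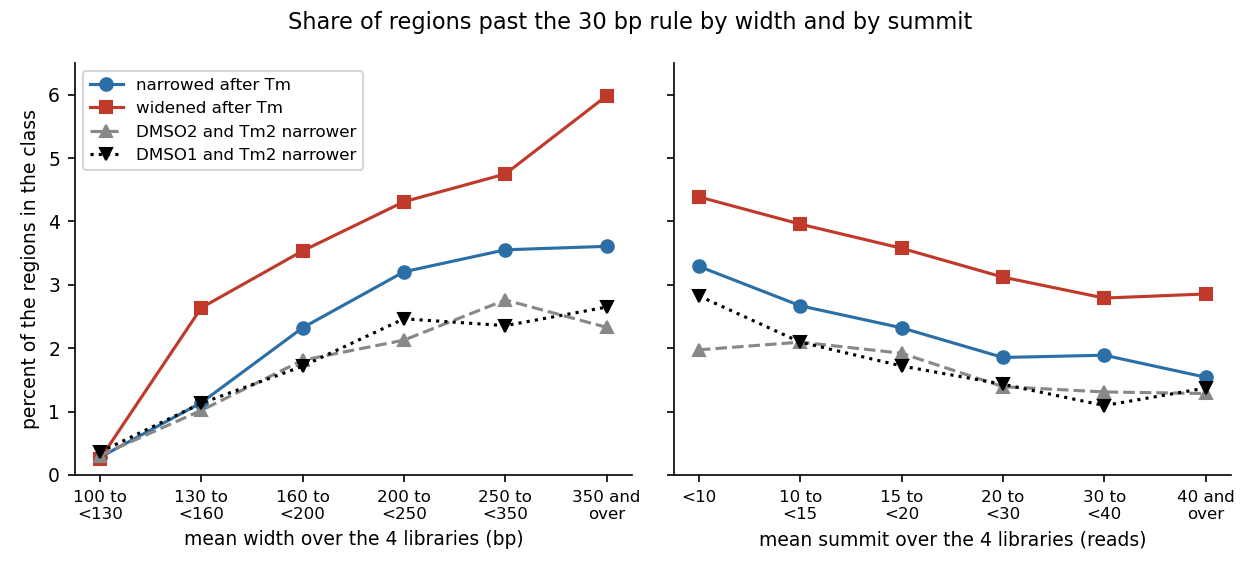
Percent of single-peak regions that met the 30 bp rule (y axis) by mean width (left, bp) and by mean summit (right, reads) over the 4 libraries, for regions narrowed and widened after Tm and for the other pairings with Tm replicate 2 on the narrower side. All 4 lines are higher in the widest class than in the narrowest, and higher in the class under 10 reads than in the class of at least 40 reads.

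Narrowed regions were spread over the genome. They lay on all 23 chromosomes listed, from 9 on chromosome X to 87 on chromosome 1. Chromosome 20 had the lowest share of its single-peak regions narrowed, 1.55% (Wilson 95% interval 0.985% to 2.44%), and chromosome 21 the highest, 3.62% (2.17% to 5.98%). On chromosome 12 it was 3.22% (2.54% to 4.07%) and on chromosome 11 it was 2.94%. The intervals of chromosomes 20 and 21 overlap, and chromosome 21 rests on 14 narrowed regions. The interval of chromosome 12 lies above those of chromosomes 20 and 16 (1.58%) without overlap. These chromosomes were picked from the 23 after their values were seen, and the intervals cover counting error only. Among widened regions the share on chromosome 16 was higher than that on chromosome 12, and the share on chromosome 20 was lower. Shares by chromosome are not given for the other pairings, so no difference between chromosomes is read from these intervals. No test was made across chromosomes.

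They mostly lay far from each other, a distance that depends on how many regions a set holds. No set of equal size was measured beside them, so isolation is not read as a trait of these regions. The nearest other narrowed region lay a median of 654846 bp away, and only 14 narrowed regions (1.61%) had another within 10000 bp. The closest pair was on chromosome 13, chr13:109895723-109895927 and chr13:109896034-109896337, 106 bp apart. Next were chr2:129293598-129293803 and chr2:129294773-129295034, 969 bp apart. Neighbours this close may not be independent sites.

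Distances to regions of any kind were close to those of all single-peak regions. The nearest region of any kind lay a median of 3894 bp away, beside 4087 bp over all single-peak regions. Another region lay within 1000 bp of 34.4% of narrowed regions and of 32.4% of all. A region listed in both DMSO libraries and in neither Tm library lay within 1000 bp of 9 narrowed regions (1.04%, beside 0.826% of all). A region listed in both Tm libraries and in neither DMSO library lay within 1000 bp of 23 (2.65%, beside 1.53% of all).

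The broadest narrowed region was chr8:103250806-103252006, with 1114 and 962 bp in the Tm libraries, against 1179 and 1181 bp in the DMSO libraries. Its Tm replicates differed by 152 bp, more than the gap of 65 bp. The next, chr22:36783944-36784655, had 672 and 641 bp in the Tm libraries, against 706 and 712 bp in the DMSO libraries, and kept 92.6% of its width. Both were strong sites with 52 to 81 reads in the Tm libraries, against 55 to 72 reads in the DMSO libraries. They met the rule with a loss that is small for their size.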

How the data were processed

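The authors deposited 1 peak list per library. Tools named in the submitters' processing notes, without order or settings, are MACS2 2.2.7.1, Bowtie2 2.3.5.1, deepTools, Picard 2.18.23, Trim Galore and SAMtools, with the build hg19. For the transposase shift, read extension and smallest peak width, settings are not given. Each deposited list holds positions, summit offsets, a score (in at least 99.95% of peaks the −log10 q-value times 10, cut to a whole number), a fold over local background, which is a ratio, and −log10 p- and q-values. Read totals were not used; the lists hold 56566 to 62526 peaks, with a median summit of 15 or 16 reads.

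Width is end minus start. Summit reads are the whole number that gives the deposited fold and matches the −log10 p-value within 0.001 (found for 100% of peaks). Ranks order each list by q-value. Regions were merged at 1 bp (Python 3.11.15, pandas 2.3.3, numpy 2.4.6, scipy 1.17.1). The merging and the rule were tested on simulated lists. Named regions were the 12 with the largest gap, the 12 with the highest mean rank and 3 on each side of the limit; others are said to be picked later. The narrowed regions, lists and settings were chosen with earlier results of these data known. Genes, motifs and base composition, planned for the case of an hg19 genome, were not analysed here. No p-value was computed.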

Additional observations from a re-analysis of the deposited data

How the results depend on the processing

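The number of narrowed regions (868) was within 1.5 times under 7 of 14 alternatives. It was 1552 with a limit of 20 bp and 337 with one of 50 bp. With the replicate number as a block, each DMSO peak at least 30 bp wider than the Tm peak of the same number, it was 1408. Nothing in the labels says that the numbers pair libraries, and the deviations of same-numbered libraries correlated at r = 0.011 over 38731 regions. Leaving out a library leaves a group of 1 and thus a looser rule: it was 2389 without Tm replicate 1, 3266 without Tm replicate 2, 3371 without DMSO replicate 1 and 3341 without DMSO replicate 2. The ratio of narrowed to widened regions (0.649) was 0.709 with a limit of 50 bp and 0.477 to 0.848 with a library left out, the lowest without Tm replicate 1. It was 0.955 with widths centred per library and turned to 1.02 with widths scaled to the library median, both settings chosen after seeing the data, so the direction depends on how widths are scaled. The share with a lower summit in both Tm libraries (14.9%) was 12.4% at 20 bp, 17.8% at 50 bp and 21.7% to 33.3% with a library left out, the highest without Tm replicate 2. With a library left out, the share over all single-peak regions is not given. The share with a loss at a single end (58.6%) was 64.4% at 50 bp and 59.2% to 61.7% with a library left out. The median gap (44 bp) follows the limit, with 32 bp at 20 bp and 69 bp at 50 bp; it was 33 bp with the replicate block and 40 to 48 bp under the other 11. Read totals were not used, so the depth behind an end is known only as summit reads (median 15 or 16 per list).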
